A study of Homo sapiens with 15 samples.

Results

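Tenascin, fibronectin and matricellular genes code for proteins of the extracellular matrix that set how cells attach, together with enzymes and fibre proteins of the same matrix. The members were chosen by gene symbol, and all 10 (TNC, FN1, SPARC, TGFBI, THBS1, POSTN, LOX, LOXL2, FBN1 and SPP1) were found among the 33158 genes of the deposited FPKM table. Earlier results of these data were known when the members were chosen, so counts of members called only describe this list. FPKM is a level of RNA per gene length, relative to the other genes of the same library.

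The study looked for genes that set cancer stem cells (CSCs) apart from other cells in triple negative breast cancer. It sequenced messenger RNA of untreated human breast cancer cell lines, in 15 libraries that fall into 5 groups of 3. The groups were CSCs and non-CSCs of SUM149PT, CSCs and non-CSCs of HCC1937, and SUM159PT. The labels write SUM149 and SUM159 for the first and the last line.

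CSCs were the cells that a flow sorter collected as CD44+/CD24-/low, and non-CSCs were the remaining cells of the same line. SUM159PT was not sorted; the labels call it cancer stem cells, since the study regards most of its cells as carrying CD44 and little CD24. Each line is 1 established culture, so line, sort and library preparation cannot be told apart in comparisons between lines. The labels do not say that replicates were separate cultures, so p-values measure only the spread between these libraries, which may be technical.

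Matricellular proteins are secreted into the matrix, where they act less as scaffolding than as signals that loosen or redirect the grip of integrins. Tenascin C and fibronectin share domains and lie in the same fibrils, fibrillin makes the microfibrils that store latent TGF-beta, and lysyl oxidases crosslink collagen and elastin. In breast tumours these genes are known chiefly from the stroma and from carcinoma cells with mesenchymal features, and tenascin C and periostin are known as parts of stem cell niches.

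Within each group the correlation of libraries over genes was between 0.987 and 0.993, and at most 0.00545% of nonzero values were identical between a pair of libraries. The summed FPKM of the table ran from 291276 to 366532 in the 12 sorted libraries and from 634746 to 652082 in the 3 libraries of SUM159PT. Between 8534 and 8670 genes were above 1 FPKM in SUM159PT, against 11249 to 11997 in the sorted libraries. Read depth is unknown, because no step worth 1 read could be found in the low values. Of 86 ribosomal protein genes, which every cell uses, 4 to 7 were at 0 in each library, so a value of 0 is read below only as listed at 0.

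The sort markers were checked first. CD24 was lower in CSCs of both lines, by a log2 difference of -4.15 in SUM149PT and -2.67 in HCC1937 (adjusted p = 1.40e-06 and 0.000128). CD44 had a mean of 84.4 FPKM in SUM149PT CSCs and 64.5 in non-CSCs (log2 difference 0.39, adjusted p = 0.00168). In HCC1937 its means were 106 FPKM in CSCs and 97.8 in non-CSCs, and the log2 difference of 0.12 missed the limit (adjusted p = 0.314). In SUM159PT the mean of CD44 was 28.8 FPKM, the lowest of the 5 groups. Among the genes that define the lines as triple negative, PGR was listed at 0 in all 3 libraries of 4 groups, and ERBB2 was more abundant than ESR1 and PGR in every group, with means between 3.55 and 19.1 FPKM.

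The promoters of 9 members were matched by symbol in a RefSeq table (GRCh38.p14), and LOXL2 was not. The 250 bases before the start were searched on both strands for TATAA (the TATA box), TGANTCA (AP-1), CATTCC (TEAD), GGGCGG (the GC box) and CAGGTG (the E-box bound by SNAI and ZEB), motifs whose letters do not contain one another. TATAA was found in 3 of the 9 members and in 19.0% of all 34819 promoters, TGANTCA in 1 and 6.60%, CATTCC in 3 and 11.9%, GGGCGG in 5 and 42.6%, and CAGGTG in 1 and 17.5%. GGGCGG was found for TNC, FN1, TGFBI, THBS1 and LOX, and CATTCC for SPARC, THBS1 and FBN1. The GC content of the 250 bases was 54.8% for TNC, 72.8% for TGFBI and 69.6% for both THBS1 and FBN1, against a median of 58.0% over all promoters. The stretches outside every annotated exon are shown for TNC and TGFBI, which were higher in CSCs of both lines, and for THBS1 and FBN1, which moved in opposite directions in the 2 lines. They are TNC chr9:115118258-115118407 (minus strand), TGFBI chr5:136028738-136028894 (plus strand), THBS1 chr15:39580829-39581078 (plus strand) and FBN1 chr15:48644971-48645220 (minus strand), the last inside the span of the gene. Capitals mark motif matches on either strand that lie wholly within a stretch, which leaves out the GGGCGG matches of TGFBI and TATAA of TNC. A match is a description, not a site or a cause.
TNC: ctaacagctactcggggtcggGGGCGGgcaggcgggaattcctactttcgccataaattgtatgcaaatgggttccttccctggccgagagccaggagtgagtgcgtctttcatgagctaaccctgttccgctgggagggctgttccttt
TGFBI: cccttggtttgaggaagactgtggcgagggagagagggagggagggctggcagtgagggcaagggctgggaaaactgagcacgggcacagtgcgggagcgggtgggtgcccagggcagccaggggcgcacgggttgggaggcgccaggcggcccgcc
THBS1: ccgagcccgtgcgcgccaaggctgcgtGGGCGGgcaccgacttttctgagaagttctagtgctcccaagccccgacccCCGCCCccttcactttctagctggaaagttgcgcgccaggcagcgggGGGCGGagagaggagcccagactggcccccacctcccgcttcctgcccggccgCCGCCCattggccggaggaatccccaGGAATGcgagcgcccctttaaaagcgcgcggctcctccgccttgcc
FBN1: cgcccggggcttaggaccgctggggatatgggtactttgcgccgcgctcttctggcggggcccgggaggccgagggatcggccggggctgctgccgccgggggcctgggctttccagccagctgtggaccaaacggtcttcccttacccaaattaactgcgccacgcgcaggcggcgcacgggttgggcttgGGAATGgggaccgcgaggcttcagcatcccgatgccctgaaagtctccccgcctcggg

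Most members were higher in CSCs than in non-CSCs, with differences between the lines. In SUM149PT 7 of the 10 members were higher in CSCs, where 33.3% of 16037 genes were, and 3 were lower, where 41.5% of genes were (limma on log2(FPKM + 0.1), Benjamini-Hochberg adjusted p at most 0.05). POSTN, among the higher members, reached the minimum mean of 0.1 FPKM only through the CSCs. The study set limits on the false discovery rate (0.0001) and on an enrichment score (1), read here as adjusted p and absolute log2 difference in the limma fit on FPKM. Under that reading 5 members were called (TNC, SPARC, TGFBI, THBS1 and LOXL2), against 20.5% of genes. The median log2 difference was 1.25 over the members and -0.11 over all genes tested, and 1.45 and 0.11 after quantile normalization. Of the genes called in SUM149PT, 44.6% were higher in CSCs, and 55.0% after quantile normalization. The pseudocount of 0.1 understates the change of low genes.

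In HCC1937 8 members were higher in CSCs, where 10.3% of 15582 genes were, and none was lower, where 15.3% of genes were. When any 1 of the 6 libraries was left out, or the replicate number entered as a block, 7 were higher, as THBS1 was no longer called. SPP1, which reached the minimum mean of 0.1 FPKM only through the CSCs, was not called, and POSTN lay below that minimum. Under the same reading of the study's limits, which need not match the study's own gene selection, the fit called 0 members and 0% of genes, with 0.000128 as the smallest adjusted p of any gene; at an unadjusted p under 0.05 there were 8 members and 5886 genes. The median log2 difference was 1.31 over the 9 members tested and -0.03 over all genes, and 1.47 and 0.09 with TPM. Of the genes called, 40.3% were higher in CSCs, against 54.3% with FPKM rescaled to TPM and 52.9% after quantile normalization. In bulk RNA, fewer cells that express a gene and less RNA per cell cannot be told apart.

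TNC codes for tenascin C, a hexameric glycoprotein that weakens the hold of cells on fibronectin. Its FPKM was 106, 100.4 and 107 in the 3 libraries of SUM149PT CSCs and 15.1, 15.6 and 18.1 in SUM149PT non-CSCs. In HCC1937 it was 44.9, 44.7 and 45.5 FPKM in CSCs and 15.2, 18.9 and 19.6 in non-CSCs. SUM159PT had 19.3, 21.7 and 23.7 FPKM. CSC libraries were high in both lines and did not overlap with non-CSC libraries, which lay close together whichever line they came from. The ratio of mean FPKM, CSC to non-CSC, was 6.43 in SUM149PT (log2 difference 2.68, SE 0.0855, adjusted p = 4.33e-06) and 2.52 in HCC1937 (1.34, SE 0.112, adjusted p = 0.000871). The difference lay above that of 98.7% of genes in SUM149PT and 98.0% in HCC1937. In order of mean FPKM ± SD (n = 3), SUM149PT CSCs (105 ± 3.62) and HCC1937 CSCs (45.0 ± 0.429) stood above SUM159PT (21.6 ± 2.20), HCC1937 non-CSCs (17.9 ± 2.36) and SUM149PT non-CSCs (16.3 ± 1.59). The last 3 groups overlapped between neighbours (exact permutation p = 0.2 and 0.3, two-sided; the smallest that 3 against 3 allows is 0.1). As a share of the summed FPKM of a library, SUM159PT (mean 0.00335%) came last, below SUM149PT non-CSCs (0.00521%) and HCC1937 non-CSCs (0.00512%) without overlap. TNC was in the candidate panel that the study picked from these libraries, so its rise is not independent evidence.

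SPARC, or osteonectin, binds collagen and calcium and counters cell spreading. It stood at 342, 362 and 350.1 FPKM in SUM149PT CSCs and at 42.3, 41.3 and 49.8 in SUM149PT non-CSCs. HCC1937 CSCs held 73.1, 63.8 and 65.2 FPKM and HCC1937 non-CSCs 17.0, 20.5 and 20.4. In SUM159PT the values were 52.6, 59.9 and 53.8 FPKM. By FPKM as deposited, no neighbours overlapped in the order SUM149PT CSC (351 ± 10.3), HCC1937 CSC (67.4 ± 4.98), SUM159PT (55.4 ± 3.96), SUM149PT non-CSC (44.4 ± 4.63) and HCC1937 non-CSC (19.3 ± 1.97). By share of the library SUM159PT (0.00860%) lay below SUM149PT non-CSCs (0.0142%), and with upper quartile scaling it lay above HCC1937 CSCs. SPARC was the member with the largest log2 difference in SUM149PT, 2.98 (SE 0.0881, adjusted p = 3.66e-06), a ratio of means of 7.90. In HCC1937 the difference was 1.802 (SE 0.106, adjusted p = 0.000326), a ratio of 3.49. It exceeded that of 99.3% of genes in each line.

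TGFBI codes for a secreted integrin ligand that TGF-beta induces, a relative of periostin. Its level was 758, 792 and 781 FPKM in SUM149PT CSCs and 142, 148 and 164 in SUM149PT non-CSCs. In HCC1937 it was 156, 142 and 138 FPKM in CSCs and 55.4, 63.6 and 56.6 in non-CSCs. SUM159PT was highest as deposited, at 2345, 2436 and 2387 FPKM. By share of the library it had 0.371% against 0.257% in SUM149PT CSCs, and after quantile normalization it lay below them (log2 difference -0.18). CSC and non-CSC libraries of the same line did not overlap, whereas SUM149PT non-CSCs (151 ± 11.5) and HCC1937 CSCs (145.1 ± 9.47) did (exact permutation p = 0.6, two-sided). The CSC to non-CSC ratio of means was 5.14 in SUM149PT (log2 difference 2.36, SE 0.0727, adjusted p = 3.97e-06). It was 2.48 in HCC1937 (1.31, SE 0.0893, adjusted p = 0.000499).

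POSTN codes for periostin, a matricellular protein that binds integrins and collagen and is made mostly by fibroblasts. It was near 0 everywhere: 0.277, 0.231 and 0.281 FPKM in SUM149PT CSCs and 0, 0.105 and 0.0757 in SUM149PT non-CSCs. The other 9 libraries were listed at 0 or held at most 0.00976 FPKM. SUM149PT CSCs were high without overlap, and the remaining groups overlapped. POSTN reached the minimum mean of 0.1 FPKM in SUM149PT only through the CSCs (mean 0.263 FPKM, against 0.0601 in non-CSCs), so its test there is only descriptive. The log2 difference in SUM149PT was 1.24 (SE 0.274, adjusted p = 0.00755); it was 0.25 at a pseudocount of 1 and 2.56 at 0.01, where the call was lost (adjusted p = 0.0598, in a range from 0.00093 to 0.0598 over all alternatives).

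SPP1 codes for osteopontin, a phosphoprotein that binds integrins and CD44. Its values were 0.581, 0.438 and 0.662 FPKM in SUM149PT CSCs and 0.259, 0.0187 and 0.107 in SUM149PT non-CSCs. HCC1937 CSCs held 0.410, 0.130 and 0.154 FPKM, HCC1937 non-CSCs 0, 0.141 and 0.0294, and the 3 SUM159PT libraries were listed at 0. SUM149PT CSCs did not overlap with any other group, and the 2 fractions of HCC1937 overlapped. The log2 difference was 1.66 in SUM149PT (SE 0.410, adjusted p = 0.0117), 0.47 with a pseudocount of 1 and 2.54 with 0.01. That call was lost without an expression minimum (adjusted p = 0.0578, in a range from 0.00237 over the alternatives). In HCC1937 the log2 difference was 1.09 with a 95% interval from -0.01 to 2.18 (adjusted p = 0.136). It was 0.22 with a pseudocount of 1 and 2.45 with 0.01, and called with neither. SPP1 reached the minimum mean of 0.1 FPKM in HCC1937 only through the CSCs (mean 0.232 FPKM, against 0.0568 in non-CSCs). Its test in that line is only descriptive.

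THBS1 codes for thrombospondin 1, a trimeric glycoprotein that inhibits vessel growth and activates latent TGF-beta. It went the other way in SUM149PT, with 15.2, 14.2 and 14.8 FPKM in CSCs and 31.7, 32.0 and 29.4 in non-CSCs. In HCC1937 the CSCs had 27.5, 25.8 and 28.3 FPKM and the non-CSCs 22.2, 23.1 and 22.5. SUM159PT had 44.1, 46.5 and 52.0 FPKM, the highest as deposited. All 4 neighbour pairs were without overlap in the order SUM159PT (47.5 ± 4.06), SUM149PT non-CSC (31.1 ± 1.42), HCC1937 CSC (27.2 ± 1.24), HCC1937 non-CSC (22.6 ± 0.426) and SUM149PT CSC (14.8 ± 0.529). By share of the library SUM149PT non-CSCs were highest (0.00996%), and SUM159PT (0.00738%) overlapped with both HCC1937 CSCs (0.00849%) and HCC1937 non-CSCs (0.00646%). The log2 difference was -1.07 in SUM149PT (SE 0.0629, adjusted p = 3.23e-05), with non-CSC means 2.11 times those of CSCs. In HCC1937 it was 0.26 (SE 0.0667, adjusted p = 0.0367), a ratio of 1.20. This call was lost when any 1 of the 6 HCC1937 libraries was left out, with adjusted p from 0.0594 (without CSC replicate 2) to 0.117 (without non-CSC replicate 1), in a range from 0.012 to 0.117 over all alternatives.

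**Figure D1:**
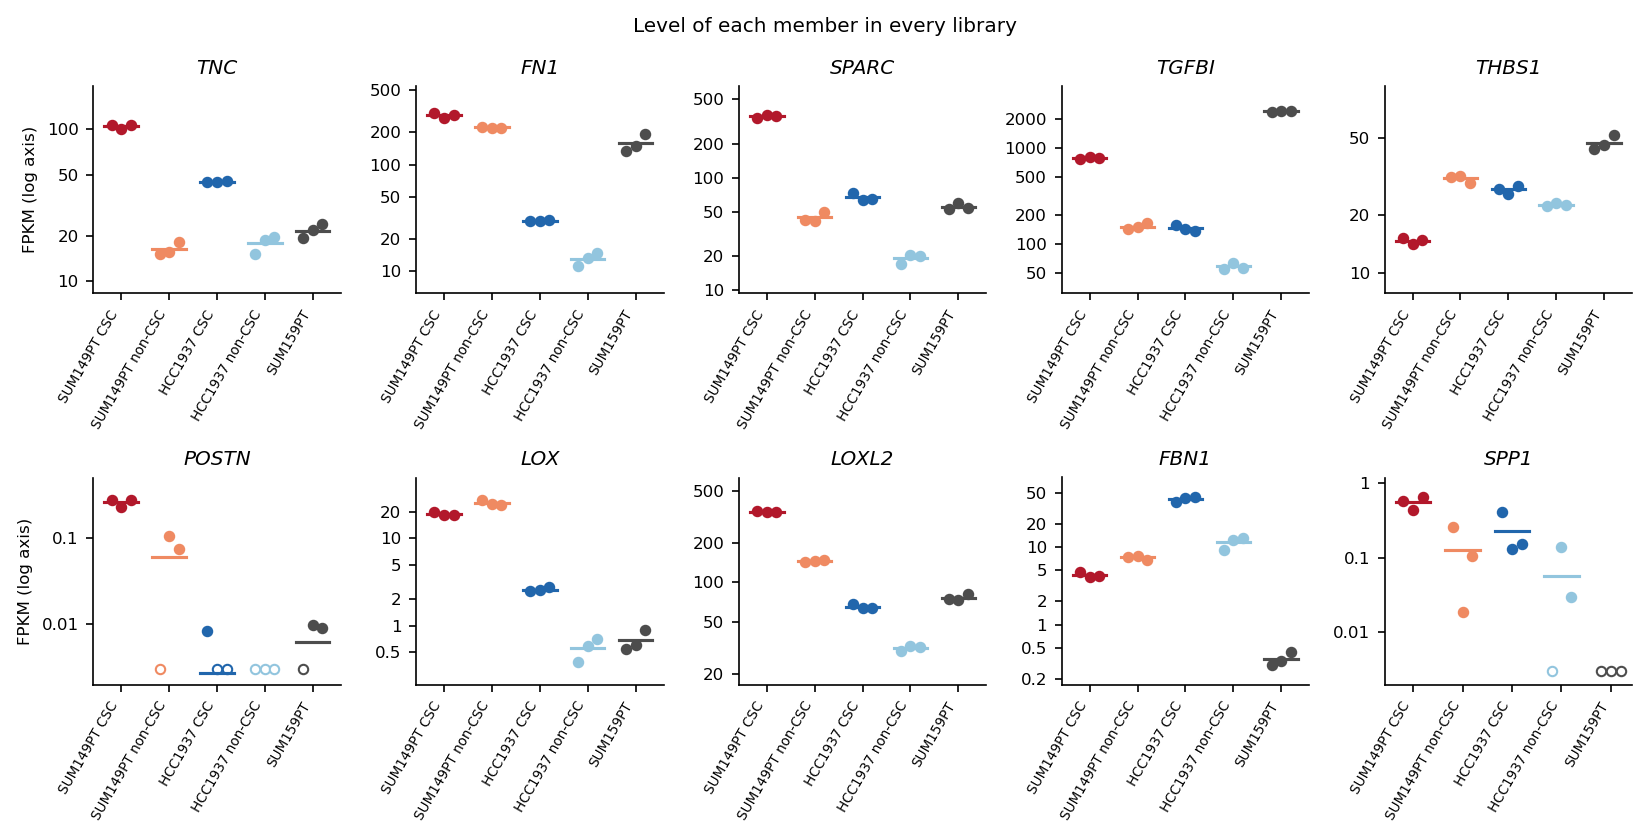
FPKM of each member (log axis, 1 panel a gene) in the 5 groups, with a point for each library, a bar for the group mean and open circles at the foot of a panel for libraries listed at 0. TNC, FN1, SPARC, TGFBI and LOXL2 were higher in CSCs than in non-CSCs of both lines, THBS1, LOX and FBN1 were lower in SUM149PT CSCs and higher in HCC1937 CSCs, and POSTN and SPP1 stayed under 1 FPKM.

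Fibronectin, the product of FN1, is the glycoprotein on which integrins build fibrils. SUM149PT held 301, 270.5 and 293 FPKM in CSCs and 226, 222 and 219.9 in non-CSCs. HCC1937 was far lower, with 29.3, 29.8 and 30.0 FPKM in CSCs and 11.3, 13.3 and 14.98 in non-CSCs. SUM159PT lay between the lines at 133, 149.5 and 191 FPKM. The groups followed each other without overlap: SUM149PT CSC (288 ± 15.9), SUM149PT non-CSC (223 ± 3.26), SUM159PT (158 ± 29.9), HCC1937 CSC (29.7 ± 0.341) and HCC1937 non-CSC (13.2 ± 1.84). The CSC to non-CSC ratio of means was 1.29 in SUM149PT (log2 difference 0.37, SE 0.0626, adjusted p = 0.00246) and 2.25 in HCC1937 (1.17, SE 0.114, adjusted p = 0.00138). The mean of SUM149PT non-CSCs was 16.9 times that of HCC1937 non-CSCs.

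FBN1 codes for fibrillin 1, the backbone of microfibrils. Its FPKM was 4.76, 4.10 and 4.21 in SUM149PT CSCs and 7.58, 7.72 and 6.90 in SUM149PT non-CSCs. HCC1937 CSCs were the highest, with 38.7, 43.1 and 44.1 FPKM, and HCC1937 non-CSCs had 9.12, 12.2 and 13.2. SUM159PT had only 0.302, 0.338 and 0.436 FPKM. No neighbours overlapped in the order HCC1937 CSC (42.0 ± 2.89), HCC1937 non-CSC (11.5 ± 2.14), SUM149PT non-CSC (7.40 ± 0.435), SUM149PT CSC (4.36 ± 0.352) and SUM159PT (0.359 ± 0.0693). The CSC effect had opposite signs: a log2 difference of -0.75 in SUM149PT (SE 0.0834, adjusted p = 0.000407) and 1.87 in HCC1937 (SE 0.155, adjusted p = 0.000857).

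LOX is the founding lysyl oxidase, a copper enzyme that crosslinks collagen and elastin. SUM149PT had 20.0, 18.3 and 18.5 FPKM in CSCs and 27.5, 24.9 and 23.8 in non-CSCs. HCC1937 had 2.49, 2.55 and 2.75 FPKM in CSCs and 0.383, 0.588 and 0.710 in non-CSCs, and SUM159PT had 0.547, 0.605 and 0.899. SUM149PT stood above the other lines without overlap, and SUM159PT and HCC1937 non-CSCs overlapped (exact permutation p = 0.5, two-sided), also by share of the library. In SUM149PT the log2 difference was -0.42 (SE 0.0779, adjusted p = 0.00363); in a single fit over all 15 libraries it was not called (adjusted p = 0.0541, the highest of all alternatives, which began at 0.000589). In HCC1937 the difference was 2.06 (SE 0.197, adjusted p = 0.00132), a ratio of means of 4.64. It exceeded that of 99.6% of genes, and was 1.21 with a pseudocount of 1.

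LOXL2, a relative of LOX, crosslinks collagen IV. It had 349, 345 and 342 FPKM in SUM149PT CSCs and 142, 145 and 148 in SUM149PT non-CSCs. In HCC1937 it had 67.8, 63.1 and 63.6 FPKM in CSCs and 29.8, 32.5 and 32.0 in non-CSCs, and in SUM159PT 74.4, 73.3 and 80.7. As deposited no neighbours overlapped, from SUM149PT CSC (345 ± 3.46) through SUM149PT non-CSC (145 ± 2.77), SUM159PT (76.1 ± 3.96) and HCC1937 CSC (64.8 ± 2.55) to HCC1937 non-CSC (31.4 ± 1.44). By share of the library SUM159PT (0.0118%) lay below HCC1937 CSCs (0.0202%). The ratio of CSC to non-CSC means was 2.38 in SUM149PT (log2 difference 1.25, SE 0.0502, adjusted p = 8.65e-06). It was 2.06 in HCC1937 (1.04, SE 0.0709, adjusted p = 0.000497). Over the 10 members there were 40 neighbour pairs of groups, of which 30 did not overlap as deposited and 29 by share of the library, where the place of SUM159PT changed for TNC, SPARC, THBS1, LOX and LOXL2. The same count was not made over all genes, so these numbers only describe the members and do not set them apart.

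**Figure D2:**
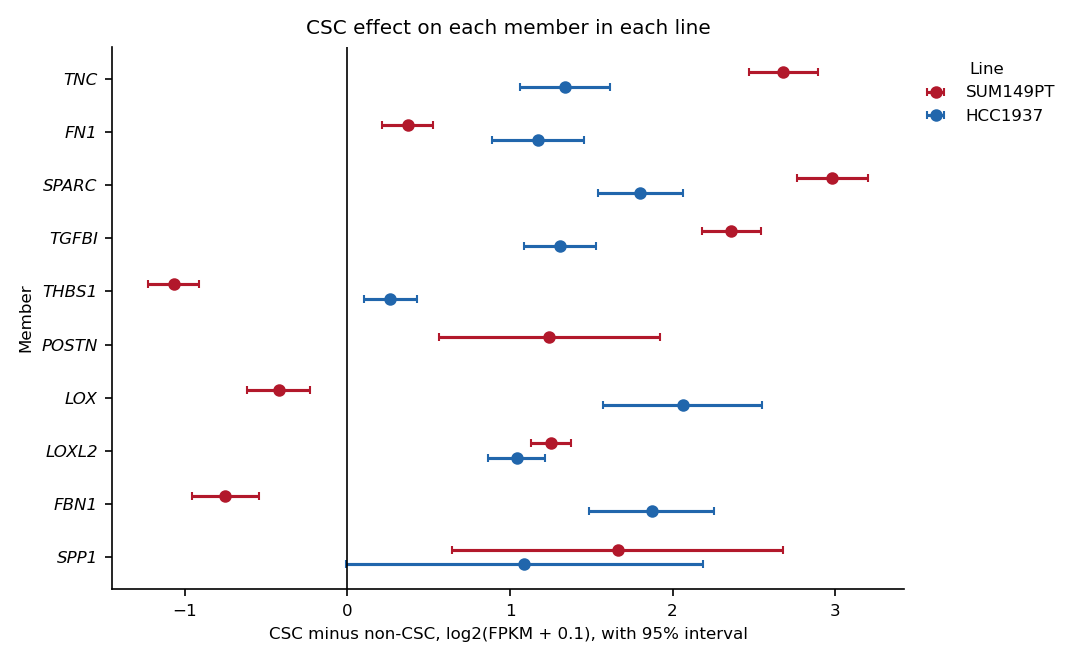
Log2 difference in FPKM + 0.1 between CSCs and non-CSCs for each member in SUM149PT and HCC1937, with 95% intervals from limma (3 libraries a group; POSTN was not tested in HCC1937). The lines fell on opposite sides of 0 for THBS1, LOX and FBN1.

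The 12 sorted libraries entered 1 limma model whose interaction term asks whether the CSC effect of a gene differs between the lines. It was positive, with a larger effect in SUM149PT, for 4 of the 9 members tested, where 28.1% of 16451 genes were called, and negative for 4, where 33% of genes were. The median was 0.21 over the members and -0.08 over all genes, but 0.04 and 0.05 after quantile normalization. Of the genes called, 46.0% were positive, 40.7% with TPM and 52.8% after quantile normalization. TNC (1.34, SE 0.142, adjusted p = 2.24e-05), SPARC (1.18, SE 0.139, adjusted p = 4.63e-05) and TGFBI (1.05, SE 0.112, adjusted p = 2.31e-05) rose more in SUM149PT. FBN1 (-2.62, SE 0.182, adjusted p = 1.26e-06), LOX (-2.48, SE 0.223, adjusted p = 7.12e-06) and THBS1 (-1.33, SE 0.0831, adjusted p = 6.14e-07) were lower in SUM149PT CSCs and higher in HCC1937 CSCs, where the call of THBS1 was lost when any 1 library of that line was left out. FN1 (-0.80, SE 0.129, adjusted p = 0.000404) rose in both lines, and more in HCC1937. SPP1 was not called (0.58, SE 0.649, adjusted p = 0.467, in a range from 0.151 to 0.962), and its value ran from 0.09 with a pseudocount of 0.01 to 0.996 after quantile normalization, and from 0.18 to 0.97 with 1 library left out. With a pseudocount of 1 the term of LOX was -1.62.

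The interaction of LOXL2 was small (0.21, SE 0.0769, adjusted p = 0.0361) and depended on the processing. It was not called with TPM (adjusted p = 0.318), upper quartile (0.0548) or quantile scaling (0.759), in a range from 0.0143 over all alternatives. It was also lost in 9 of the 12 fits that left out 1 library, with adjusted p from 0.0611 to 0.0831. These were all fits but those without SUM149PT non-CSC replicate 3 or replicate 1 of either HCC1937 fraction.

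Summed over the 10 members, the level was 1897, 1907 and 1912 FPKM in SUM149PT CSCs and 635, 636 and 660.0 in SUM149PT non-CSCs. HCC1937 CSCs summed to 439.9, 415 and 417 FPKM and HCC1937 non-CSCs to 160.4, 185 and 180.1. SUM159PT had the highest sums, 2670, 2788 and 2790 FPKM. As a share of the summed table, the order differed: 0.602% to 0.651% in SUM149PT CSCs, 0.409% to 0.440% in SUM159PT, 0.198% to 0.212% in SUM149PT non-CSCs, 0.127% to 0.136% in HCC1937 CSCs and 0.0453% to 0.0545% in HCC1937 non-CSCs. TGFBI was the largest member in 4 groups and FN1 in SUM149PT non-CSCs. In SUM159PT TGFBI made up 85.6% to 87.8% of the members' sum, and 6 members were above 1 FPKM, against 8 in both SUM149PT fractions and HCC1937 CSCs and 7 in HCC1937 non-CSCs.

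**Figure D3:**
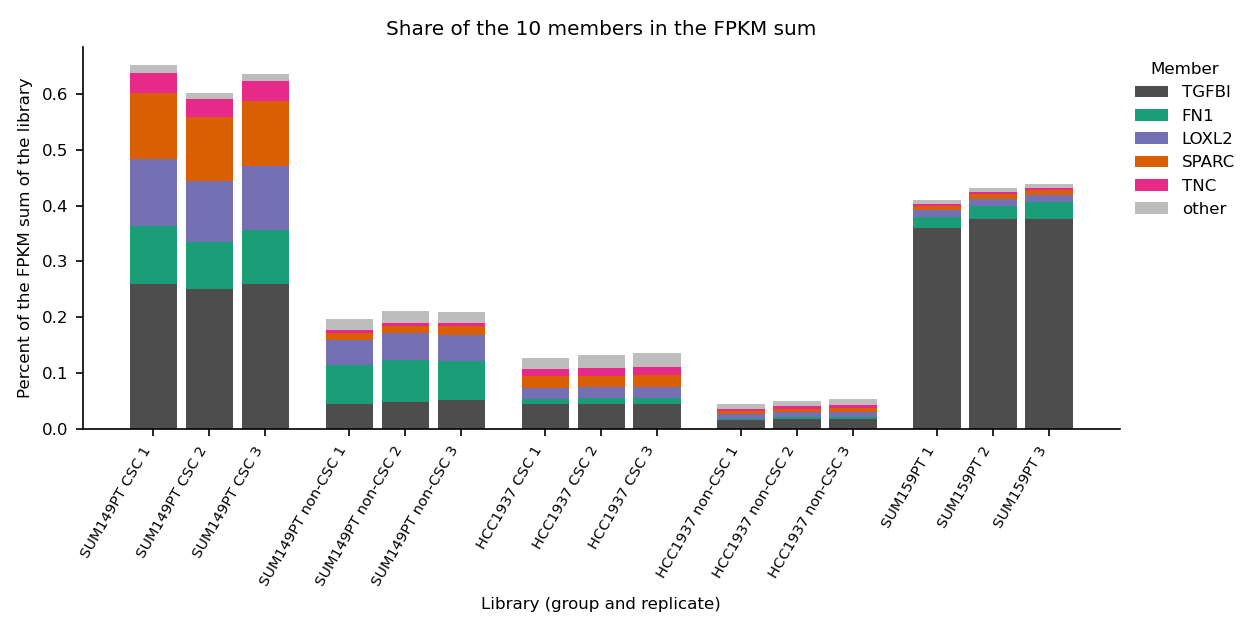
Share of each library's summed FPKM (percent) taken by the members, stacked as TGFBI, FN1, LOXL2, SPARC, TNC and the others, with 1 bar for each of the 15 libraries. The share was highest in SUM149PT CSCs, and TGFBI made up most of it in SUM159PT.

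Levels were next compared between the lines within the cells labelled CSC, in 1 model of all 15 libraries that tested 9 members and 16373 genes. HCC1937 CSCs had 2 members higher than SUM149PT CSCs, where 45.1% of genes were, and 7 lower, where 31.8% were. FBN1 (log2 difference 3.24, adjusted p = 3.52e-10) and THBS1 (0.88, adjusted p = 1.44e-07) were the higher members. FN1 (-3.27, adjusted p = 1.12e-10), LOX (-2.82, adjusted p = 1.74e-08), TGFBI (-2.42, adjusted p = 2.13e-11), LOXL2 (-2.41, adjusted p = 2.94e-12), SPARC (-2.38, adjusted p = 2.39e-10) and TNC (-1.21, adjusted p = 3.18e-07) were lower. SPP1 was lower as well (-1.07, adjusted p = 0.0317). Its call was lost without SUM149PT CSC replicate 1 (adjusted p = 0.0709) or 3 (0.0891), without HCC1937 CSC replicate 2 (0.112) or 3 (0.0955), and under 3 other settings, up to 0.192 with a pseudocount of 0.01, in a range from 0.00429. Its difference was -0.35 with a pseudocount of 1. The median was -2.38 over the members and 0.22 over all genes, and -2.62 and 0 with upper quartile scaling. Of the genes called, 58.7% were higher in HCC1937 CSCs, against 55.5% with TPM, 49.8% with upper quartile scaling and 51.7% after quantile normalization.

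SUM159PT against SUM149PT CSCs, a comparison that shares the SUM149PT libraries with the previous one, had 2 members higher, where 28.3% of genes were, and 7 lower, where 53.3% were. THBS1 was higher (log2 difference 1.68, adjusted p = 1.01e-10), by 0.59 with TPM. TGFBI was higher as deposited (1.62, adjusted p = 2.87e-10), at 0.53 with TPM, and turned to -0.18 after quantile normalization (adjusted p = 0.0321, in a range from 1.54e-11). The members at lower levels were LOX (-4.63, adjusted p = 5.19e-11), FBN1 (-3.29, adjusted p = 1.03e-10), SPP1 (-2.71, adjusted p = 4.72e-05), SPARC (-2.66, adjusted p = 2.55e-11), TNC (-2.28, adjusted p = 2.77e-10), LOXL2 (-2.18, adjusted p = 1.62e-12) and FN1 (-0.88, adjusted p = 2.07e-05). FN1 ran from -1.97 with TPM to -0.57 with upper quartile scaling, and after quantile normalization FBN1 was at -1.73. SPP1 was listed at 0 in SUM159PT, so its value depended on the pseudocount, at -5.81 with 0.01 and -0.64 with 1. It reached the minimum mean of 0.1 FPKM only through the other groups, so its place among the lower members is only descriptive. With TPM SPP1 was at -4.27. The medians were -2.28 over the members and -0.60 over all genes. They were -3.32 and -1.44 with TPM, -1.97 and -0.41 with upper quartile scaling, and -2.45 and 0 with quantile scaling. Higher genes were 34.7% of those called, 16.9% with TPM and 50.2% after quantile normalization.

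SUM159PT against HCC1937 CSCs had 4 members higher, where 27.6% of genes were, and 5 lower, where 57.2% were. TGFBI (log2 difference 4.04, adjusted p = 6.21e-14) and FN1 (2.39, adjusted p = 7.58e-10) were higher, and FBN1 (-6.53, adjusted p = 1.56e-13), TNC (-1.06, adjusted p = 6.82e-07) and SPP1 (-1.63, adjusted p = 0.00264) were lower, under each scaling tried. Over the scalings FBN1 ran from -7.65 with TPM to -5.05 after quantile normalization, and it was at -4.98 with a pseudocount of 1. TGFBI was at 2.58 after quantile normalization and FN1 at 1.39 with TPM. TNC ran from -2.07 with TPM to -0.52 with upper quartile scaling. SPP1 was at -2.88 with TPM, at -4.41 with a pseudocount of 0.01 and at -0.29 with a pseudocount of 1. As it was listed at 0 in SUM159PT and reached the minimum mean only through other groups, its call is only descriptive here too. THBS1 was 0.80 higher as deposited (adjusted p = 1.97e-07) and turned to -0.20 with TPM (adjusted p = 0.0652, in a range from 5.12e-10). LOXL2 was 0.23 higher (adjusted p = 0.00285) and turned to -0.77 with TPM (adjusted p = 6.66e-07) and -0.15 after quantile normalization (0.0852, the top of a range from 8.48e-08). With upper quartile scaling THBS1 was at 1.35 and LOXL2 at 0.78. SPARC was at -0.28 (adjusted p = 0.017), at -1.29 with TPM, and turned to 0.27 with upper quartile scaling (adjusted p = 0.0304). Its call was lost without SUM159PT replicate 1 (adjusted p = 0.0592) or HCC1937 CSC replicate 1 (0.070), in a range from 6.06e-08. LOX was lower (-1.81, adjusted p = 7.67e-07) and at -2.85 with TPM, but at -0.05 after quantile normalization (adjusted p = 0.8, in a range from 3.23e-08). The median was -0.28 over the members and -0.85 over all genes. With TPM these were -1.03 and -1.64, with upper quartile scaling 0.27 and -0.41, and after quantile normalization -0.15 and 0. Of the genes called, 32.5% were higher, 17.0% with TPM and 50.2% after quantile normalization.

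**Figure D4:**
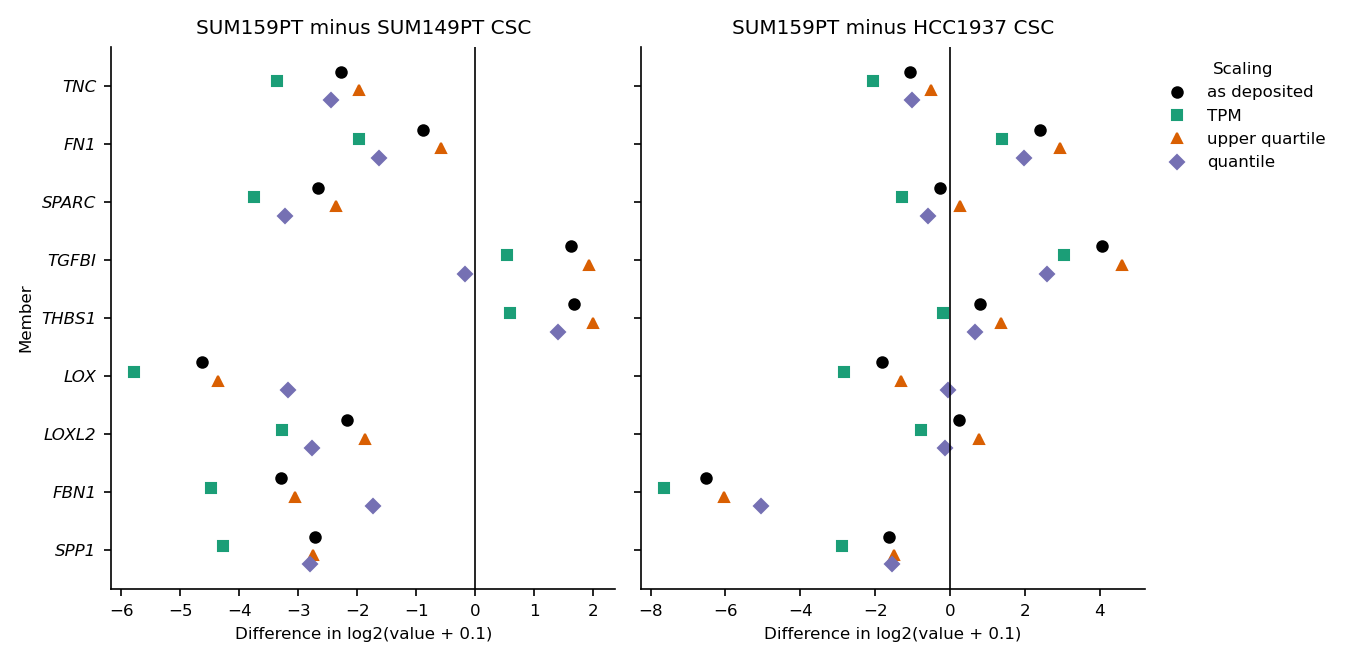
Log2 difference of SUM159PT from SUM149PT CSCs and from HCC1937 CSCs for each member, with a point for each of 4 scalings of the same values (as deposited, TPM, upper quartile, quantile). TGFBI turned negative against SUM149PT CSCs with quantile scaling; against HCC1937 CSCs, THBS1, LOXL2 and SPARC changed sign under at least 1 scaling.

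Among all 33158 genes ranked by mean FPKM in SUM159PT, where the top 25% of genes began at 1.17 FPKM, 6 members lay in that top 25%. They were TGFBI (percentile 99.9), FN1 (98.6), LOXL2 (97.4), SPARC (96.5), THBS1 (96.0) and TNC (92.9). The same 6 were in the top 25% of the 18012 genes above 0, whose limit was 6.82 FPKM. LOX (71.3), FBN1 (67.0) and POSTN (48.2) ranked lower, and SPP1 was listed at 0.

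The genes whose log2 level followed TNC most closely over the 15 libraries, among 12164 genes whose overall mean reached 1 FPKM, were TGFBR2, a TGF-beta receptor (Pearson r = 0.987), COL5A1, a fibrillar collagen (0.978), and HIPK2, a nuclear kinase (0.976). TGFBR2 had means of 40.4 FPKM in SUM149PT CSCs, 8.81 in SUM149PT non-CSCs, 18.5 in HCC1937 CSCs, 8.05 in HCC1937 non-CSCs and 8.29 in SUM159PT. It was in the study's candidate panel as well. For TGFBI, the member with the highest mean, they were PKIG, an inhibitor of protein kinase A (0.998), RIN1, a RAS effector (0.995), and FKBP10, a collagen chaperone (0.993). The points share lines and libraries, so these values only describe likeness.

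Relatives of the members moved in both directions, as did all genes (33.3% higher and 41.5% lower in SUM149PT CSCs, 10.3% and 15.3% in HCC1937 CSCs). Of 7 tenascin and thrombospondin relatives, 2 were tested in SUM149PT, of which 1 fell, and 2 in HCC1937, of which 1 rose and 1 fell (limma; THBS2, thrombospondin 2, had a log2 difference of 2.06 there). The fall in SUM149PT was not called with quantile scaling (0 of 2) or TPM (1 higher and 0 lower of 4). Among 7 SPARC relatives, 5 were tested in each line, and 3 rose and 2 fell in each; in SUM149PT 3 fell with TPM, which tested 6, and 1 with quantile scaling. SPOCK1, a testican proteoglycan, rose by 2.90 in SUM149PT and 1.39 in HCC1937, and its relative SPOCK2 changed by -4.14 and -2.16. SMOC1 rose by 1.22 and 0.83, and FSTL1 changed by -0.25 and 1.58.

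The CCN family, further matricellular proteins, had 2 higher and 1 lower of 5 tested in SUM149PT, and 3 higher and 1 lower of 6 in HCC1937 (3 higher in SUM149PT with quantile scaling). WISP1 rose by 1.64 in SUM149PT and 0.60 in HCC1937, and CYR61 rose by 1.01 in HCC1937 (0.11 in SUM149PT, not called). NOV changed by -1.02 in SUM149PT (0.23 in HCC1937, not called). Of 3 lysyl oxidase relatives, LOXL4 fell in SUM149PT, where 1 other rose with quantile scaling, and limma called none of 3 in HCC1937 (0 at an unadjusted p under 0.05). Of 4 osteopontin relatives, none was tested in SUM149PT, and IBSP rose in HCC1937, with a mean of 0.199 FPKM in CSCs and 0.0446 in non-CSCs. IBSP thus reached the minimum mean of 0.1 FPKM only through the CSCs, and its test is only descriptive.

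Microfibril and elastic fibre genes had 5 higher and 6 lower of 13 tested in SUM149PT, where 33.3% of genes were higher and 41.5% lower, but 7 higher and 5 lower with quantile scaling. In HCC1937 5 were higher and 2 lower of 11, where 10.3% and 15.3% of genes were. EFEMP1, a fibulin, rose in both lines (1.05 in SUM149PT and 1.44 in HCC1937), as did LTBP2, which binds fibrillin (1.91 and 0.47). FBLN1 rose by 2.56 in SUM149PT and changed by -1.06 in HCC1937, and EMILIN2 changed by -1.998 in SUM149PT and 0.86 in HCC1937. Small leucine-rich proteoglycans were lower in SUM149PT CSCs for 2 of 2 tested, FMOD (-3.96) and BGN (-3.91). FMOD reached the minimum mean of 0.1 FPKM only through the non-CSCs (mean 2.11 FPKM, against 0.0439 in CSCs). Its test is only descriptive. In HCC1937 1 was tested and higher, BGN (1.70).

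Of 13 cell surface receptors for the members, 9 were tested in SUM149PT, with 6 higher and 3 lower in CSCs (33.3% and 41.5% of genes), and 10 in HCC1937, with 4 higher and 3 lower (10.3% and 15.3%). ITGB3, a chain of the vitronectin and osteopontin receptor, rose by 3.05 in SUM149PT and 1.96 in HCC1937, and ITGB5 rose by 1.499 and 0.66. ITGB8, whose integrin frees latent TGF-beta, changed by -4.44 and -1.26, and ITGB6, a chain found in epithelia, by -2.27 and -2.11. ITGB1, the chain shared by the main fibronectin receptors, had means of 136 FPKM in SUM149PT CSCs and 429 in HCC1937 CSCs but 5.46 in SUM159PT.

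Markers of other cell types and states moved with the fractions, and their part in the results for the members was not tested. All 8 breast epithelial markers were lower in CSCs of both lines, with a median log2 difference of -3.73 in SUM149PT, where 41.5% of genes were lower, and -1.46 in HCC1937, where 15.3% were; with TPM and quantile scaling 7 of the 8 were called in SUM149PT. KRT19 (-4.75 and -2.29), KRT5 (-4.62 and -1.33), CDH1 (-4.52 and -2.29) and EPCAM (-4.44 and -2.23) were among them. Their summed level was 193, 202 and 198 FPKM in SUM149PT CSCs and 2395, 2321 and 2317 in SUM149PT non-CSCs. It was 732, 681 and 618 FPKM in HCC1937 CSCs, 1845, 1855 and 1600.4 in HCC1937 non-CSCs and 294, 278 and 293 in SUM159PT. The most abundant marker was KRT17 in SUM149PT CSCs (66.4 FPKM), KRT19 in SUM149PT non-CSCs (1127), KRT8 in HCC1937 CSCs (216), and KRT18 in HCC1937 non-CSCs (611) and SUM159PT (153). None of the 8 was at 0 in all 3 libraries of any group.

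Of 8 fibroblast and pericyte markers, which cells with mesenchymal features also express, 4 rose and 2 fell among 6 tested in SUM149PT, and 2 rose among 3 tested in HCC1937, where all 3 were higher at an unadjusted p under 0.05 (limma). Of all genes, 33.3% rose and 41.5% fell in SUM149PT, and 10.3% rose in HCC1937. With TPM 5 rose and 2 fell of 8 in SUM149PT and 4 rose of 5 in HCC1937, and with quantile scaling 4 rose and 1 fell in SUM149PT and 3 rose in HCC1937. PDGFRA (3.11), PDGFRB (3.10) and COL3A1 (2.26) rose in SUM149PT CSCs, and DCN changed by -3.10. The summed level was 242, 244 and 239 FPKM in SUM149PT CSCs and 67.4, 68.9 and 71.0 in SUM149PT non-CSCs. It was 12.5, 12.8 and 11.8 FPKM in HCC1937 CSCs, 6.12, 7.34 and 7.84 in HCC1937 non-CSCs and 43.4, 48.9 and 46.9 in SUM159PT. COL1A1 was the most abundant in every group, with means of 216, 49.0, 11.04, 6.76 and 20.1 FPKM in that order, and PDGFRA and DCN were listed at 0 in HCC1937 non-CSCs.

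Endothelial markers were near 0. Of 4, 3 were tested and lower in SUM149PT CSCs (41.5% of genes were), and 1 of 2 was lower in HCC1937 CSCs (15.3% of genes were); none rose in either line (limma; 0 at an unadjusted p under 0.05). In SUM149PT CSCs the mean sum of the 4 was 0.168 FPKM, of which PECAM1 made up 0.108. The other markers tested in SUM149PT reached the minimum mean of 0.1 FPKM only through the non-CSCs. Those tests are only descriptive. The sums of the 4 markers were 0.171, 0.162 and 0.171 FPKM in SUM149PT CSCs, 1.59, 1.83 and 1.72 in SUM149PT non-CSCs, 0.792, 0.695 and 0.660 in HCC1937 CSCs, 0.974, 0.797 and 0.880 in HCC1937 non-CSCs and 0.295, 0.225 and 0.345 in SUM159PT. The most abundant was PECAM1 in 3 groups, VWF in SUM149PT non-CSCs and KDR in SUM159PT, where CDH5 was listed at 0. Of 4 leukocyte markers, CD14 (-4.23) and CD68 (-1.57) were lower in SUM149PT CSCs, and CD14 was higher in HCC1937 CSCs (0.99), where CD68 was not called (0.08). Their sums were 19.1, 19.3 and 18.2 FPKM in SUM149PT CSCs, 100.5, 95.6 and 103 in SUM149PT non-CSCs, 108, 107 and 93.5 in HCC1937 CSCs, 70.9, 72.5 and 67.4 in HCC1937 non-CSCs and 50.2, 54.0 and 47.7 in SUM159PT. CD68 or CD14 was the most abundant in each group, CD3E was listed at 0 in every group, and PTPRC was at 0 in SUM159PT. Of the receptor status markers, 2 of 3 were tested and lower in CSCs of both lines, ESR1 by log2 differences of -2.61 and -1.85. In SUM149PT ESR1 reached the minimum mean of 0.1 FPKM only through the non-CSCs (mean 0.970 FPKM, against 0.0743 in CSCs). Its test there is only descriptive.

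The members lie on 7 chromosomes of GRCh38 (GENCODE 29). FN1 spans chr2:215360440-215436172, SPP1 chr4:87975650-87983426, LOX chr5:122063195-122078360, TGFBI chr5:136028895-136063818 and SPARC chr5:151661096-151687165. TNC spans chr9:115019578-115118257, POSTN chr13:37562583-37598844, THBS1 chr15:39581079-39599466, FBN1 chr15:48408306-48645849 and LOXL2 chr8:23297189-23425328. The sources used here do not state whether counting used strand, so reads from exons shared with a gene on the opposite strand cannot be told apart. Such overlaps covered 1.34% of the exonic bases of TNC (with DEC1), 7.89% of SPARC (CLMAT3), 2.49% of LOX (SRFBP1) and, with separate partners, 4.49% and 4.89% of THBS1 (the latter with FSIP1). LOXL2 shares 3.12% of its exonic bases with a transcript on the opposite strand and 2.10% with ENTPD4 on its own strand. The levels of these members are therefore uncertain, by an amount that the shares of bases do not give. DEC1 and FSIP1 were highest in SUM149PT CSCs, at means of 0.0779 and 0.375 FPKM, where TNC had 105 and THBS1 14.8. The partner of SPARC, the other partner of THBS1 and the opposite-strand transcript of LOXL2 have no listed level. For LOX the uncertainty concerns most of all HCC1937 non-CSCs, where SRFBP1 had a mean of 2.50 FPKM and LOX of 0.560, against 2.83 and 2.60 in HCC1937 CSCs. The difference of LOX between the HCC1937 fractions shares this uncertainty.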

How the data were processed

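The FPKM table deposited by the authors holds 33158 gene symbols in 15 libraries, made from poly(A)-selected RNA on a HiSeq instrument; the submitters' processing notes name Bowtie2 and GRCh38, and no version or normalization between libraries is given in the sources used here. All 15 columns were matched to a library. limma 3.58.1 in R 4.3.3 (lmFit, eBayes) was run on log2(FPKM + 0.1) for every gene whose mean reached 0.1 FPKM in the libraries fitted, and p was adjusted over all of these by Benjamini-Hochberg. Some genes reached this minimum through the higher group alone, among them POSTN, LOXL4, FMOD and ESR1 in SUM149PT and SPP1, WISP1 and IBSP in HCC1937. The fits used the 6 libraries of a line, the 12 sorted libraries (interaction) or 5 groups in 15 libraries. Neighbouring groups were compared by exact permutation tests on FPKM. Levels, ranks, correlations and promoter motifs were computed in Python 3.11.15 with pandas 2.3.3, numpy 2.4.6 and scipy 1.17.1, and drawn with matplotlib 3.10.9. The fit was tested on simulated data.

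The named genes are the 10 members and, from each further list, up to 4 genes called with an absolute log2 difference of at least 1 in both lines, then in either line, that reached a mean of 1 FPKM in some group. The 3 genes closest to TNC and to the most abundant member were added. CD44 was named for the gate, and genes that overlap a member for their position. ITGB1, LOXL4, IBSP, PGR, CDH5, CD3E, PTPRC and the most abundant genes of marker lists were named after their values were seen. The members and lists were chosen with earlier results of these data known.

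Alternatives were the pseudocount, the expression minimum, TPM, upper quartile and quantile scaling, eBayes with a trend, a fold limit, each library left out, the replicate number as a block and 1 fit over 15 libraries.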

Additional observations from a re-analysis of the deposited data

Results flagged for a closer look

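For 8 members the difference between CSCs and non-CSCs was not the same in SUM149PT as in HCC1937, by limma's interaction test over the 12 sorted libraries (log2 difference, SUM149PT minus HCC1937). Such calls were common: of all 16451 genes tested, 28.1% were called with a positive and 33% with a negative difference. TNC differed by 1.34 (adjusted p = 2.24e-05), SPARC by 1.18 (adjusted p = 4.63e-05) and TGFBI by 1.05 (adjusted p = 2.31e-05), each higher in CSCs of both lines and more so in SUM149PT. LOXL2 differed by 0.21 (adjusted p = 0.0361), a call that TPM, upper quartile or quantile scaling ended. It was also lost with the replicate number as a block (adjusted p = 0.113) and in most fits that left out 1 library. FN1 differed by -0.80 (adjusted p = 0.000404), with the larger effect in HCC1937. THBS1 (-1.33, adjusted p = 6.14e-07), LOX (-2.48, adjusted p = 7.12e-06) and FBN1 (-2.62, adjusted p = 1.26e-06) were lower in CSCs of SUM149PT and higher in CSCs of HCC1937. The rise of THBS1 in HCC1937 was small (0.26, adjusted p = 0.0367) and was not called when any 1 of the 6 libraries was left out (adjusted p from 0.0594 to 0.117).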

How the results depend on the processing

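For single members, the direction and the side of the threshold were as reported in 161 of 167 alternative results for SUM149PT, 143 of 151 for HCC1937, 182 of 197 for the interaction, 126 of 134 for HCC1937 CSC against SUM149PT CSC, 132 of 134 for SUM159PT against SUM149PT CSC and 124 of 134 for SUM159PT against HCC1937 CSC. Fits in which a member fell below the expression minimum are left out of these counts. POSTN and SPP1, for example, were not tested at a minimum of 1 FPKM. Directions turned only in the SUM159PT comparisons. Against SUM149PT CSC, TGFBI turned to -0.18 with quantile scaling. Against HCC1937 CSC, SPARC turned to 0.27 with upper quartile scaling, THBS1 to -0.20 with TPM, and LOXL2 to -0.77 with TPM and -0.15 with quantile scaling. The cause was not tested. With an absolute log2 difference of at least 1 asked for as well, which by construction leaves fewer calls, genes higher and lower numbered 2045 and 3551 in SUM149PT, 422 and 935 in HCC1937, 2014 and 2990 for the interaction and 4198 and 2835 for HCC1937 CSC against SUM149PT CSC, and 2882 were higher in SUM159PT than in HCC1937 CSC. Members lower in SUM149PT CSC then numbered 1, members higher in HCC1937 CSC than in SUM149PT CSC 1, and members higher in SUM159PT than in HCC1937 CSC 2. With TPM, 2368 genes were higher in SUM159PT than in SUM149PT CSC, and 2502 genes and 2 members higher than in HCC1937 CSC. With quantile scaling 1 member was higher in SUM159PT than in SUM149PT CSC, and 6944 genes were higher than in HCC1937 CSC. Leaving out 1 library gave 1049 (without HCC1937 non-CSC replicate 1) to 1270 genes higher in HCC1937 CSC, against 1607. Libraries share only a replicate number: same-numbered CSC and non-CSC libraries deviated together with r of 0.136, 0.0287 and 0.12 in SUM149PT and -0.158, -0.0504 and -0.0355 in HCC1937, and not every library correlated best with its own number. With the number as a replicate block, the members called were 10 of 10 in SUM149PT, 7 in HCC1937 (8 without it; THBS1, adjusted p = 0.0966) and 7 for the interaction (8 without it; LOXL2, adjusted p = 0.113), and the genes higher and lower were 5094 and 6398, 1161 and 1905, and 4435 and 5213. The number of libraries, 3 a group, limits the precision, and counting error cannot be given without depth.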
